A study of Mus musculus with 16 samples.

Results

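Malat1 and Neat1 are neighbouring nuclear long noncoding RNA genes on mouse chromosome 19, and their transcripts were followed here in skeletal muscle of 16 male C57BL/6J mice. Members were all rows of the lncRNA table that overlapped 5795 to 5846 kb of chromosome 19 (GRCm38). This gave 44 of 58245 rows, with 25 in the Malat1 window (5795 to 5803 kb), 16 in the Neat1 window (5820 to 5846 kb) and 3 between them. Each row is an annotated transcript, not a gene, and 10 of the 44 carried Ensembl identifiers while the others came from NONCODE. By overlap alone the Neat1 window also took in Frmd8os-202 (ENSMUST00000187697), an antisense transcript on the opposite strand, and the Malat1 window took in Gm20417 (ENSMUST00000174784).

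The mice entered the study at 6 weeks of age and formed 4 groups of 4. The control group ate normal diet. The HFD group ate a high-fat diet, which preceded treatment by 8 weeks, and the HFD + RSV and HFD + metformin groups ate the same diet and then received resveratrol (RSV, a plant polyphenol) or metformin (a glucose-lowering drug) for 6 weeks. The comparisons ask whether the diet altered the transcripts of the locus and whether either compound altered them on that diet.

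The libraries held 20281801 to 34021101 fragments over the lncRNA and mRNA tables, of which 2655892 to 4325781 (12.0% to 15.4%) were in lncRNA rows. Every muscle marker was present, at 190661 to 288303 summed CPM (counts scaled to library size), whereas the 5 of 6 retinal markers in the table summed to 0.371 to 1.69 CPM, which was checked because the extraction text of the labels names retinas. All 4 HFD mice have labels with the same leading number, so that a shared cage or batch, if that is what the number marks, and the diet cannot be told apart. Each library is bulk muscle, in which fewer cells of a type and less RNA per cell cannot be told apart. Which muscle was taken is not given in the sources used here.

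Malat1 RNA is kept in nuclear speckles, bodies rich in splicing factors. Neat1 has a short isoform that ends at a polyadenylation site and a long isoform that reads through this site and holds together paraspeckles, which are nuclear bodies built on that RNA by proteins such as SFPQ, NONO and PSPC1. The long Neat1 isoform and Malat1 end without a poly(A) tail: RNase P cuts upstream of a tRNA-like element, and the new end is protected by a triple helix formed by an A-rich stretch with U-rich stretches before it.

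The RNA ends that separate the isoforms are given as DNA, 5′ to 3′ along the minus strand, from the GENCODE M21 transcripts (GRCm38). They are given because the isoforms end there and the counts are divided among the rows, which also differ in where they start and how they are spliced.
Neat1-202 3′ end, chr19:5842307-5842366: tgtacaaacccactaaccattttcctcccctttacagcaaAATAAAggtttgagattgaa
Neat1-201 3′ end, chr19:5824708-5824767: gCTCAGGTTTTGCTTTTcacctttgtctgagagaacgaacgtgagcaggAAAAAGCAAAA
Gm27702-201, chr19:5824652-5824707: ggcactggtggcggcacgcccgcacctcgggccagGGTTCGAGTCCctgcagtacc
Malat1-201 3′ region, chr19:5795915-5796035: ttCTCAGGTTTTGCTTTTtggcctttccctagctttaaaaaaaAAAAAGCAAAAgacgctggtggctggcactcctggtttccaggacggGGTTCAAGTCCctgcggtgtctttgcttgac

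Capitals in the Neat1-202 end mark the hexamer AATAAA, which lies 14 bases before the end of this short isoform. Neat1-201, the long isoform, runs for another 17613 bases beyond that hexamer. Capitals in the Neat1-201 and Malat1-201 sequences mark a 16-base U-rich stretch and an A-rich stretch that are letter for letter the same in both RNAs. The 56 bases annotated as Gm27702-201 follow directly on the end of Neat1-201 and hold, in capitals, a match to the tRNA B box. Malat1-201 as annotated holds its own match to the B box, also in capitals, after the A-rich stretch, so this row includes the tRNA-like part that is cut off. Searched on the transcript strand in the last 60 bases of 141515 GENCODE M21 transcripts, AATAAA was held by 27.2%, the U-rich stretch by 0.000707% (1 transcript), the A-rich stretch by 0.0382% and the B box by 0.0657%. Both stretches were taken from the end of Neat1-201, which is itself the 1 transcript. The search does not reach the marked parts of Malat1-201, where 292 bases follow the A-rich stretch and 245 the B box. It also leaves out Gm27702-201, which is shorter than 60 bases.

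The summed Malat1 count differed little among the 16 mice, whereas that of Neat1 ranged over more than an order of magnitude within each group. The 25 Malat1 rows summed to 10459 to 19520 counts in a mouse, a 1.87-fold range, and the 16 Neat1 rows to 4225 to 90863 counts, a 21.5-fold range. On a scale per length, the summed FPKM (fragments scaled to transcript length and library size) was 70.8 to 137 for Malat1 and 26.3 to 172 for Neat1, and Neat1 exceeded Malat1 in 7 of the 16 mice. The sums of both loci showed no clear relation across mice, with a Pearson r of -0.07 between their log2 CPM after group means were subtracted (16 mice that share the lncRNA table's scaling). With so few mice a moderate relation could be missed.

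**Figure D1:**
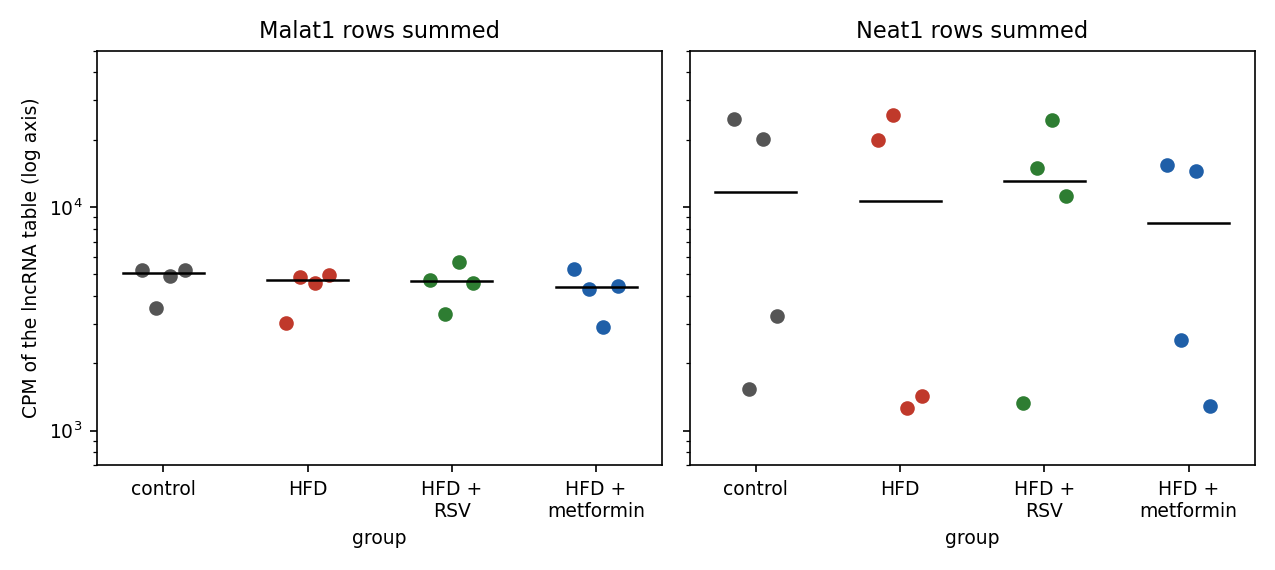
Summed CPM of the Malat1 rows (left) and the Neat1 rows (right) on a shared log axis, with a point for each mouse and a line at the median of each group of 4. The Malat1 points lie between 2894 and 5668 CPM, whereas in every group the Neat1 points fall into a lower and an upper set between 1260 and 25922 CPM.

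Malat1 did not change detectably with diet or treatment. In CPM of the lncRNA table, control mice 1 to 4 had 5205, 3531, 4938 and 5207. HFD mice had 3044, 4846, 4591 and 4968, HFD + RSV mice 4730, 3314, 5668 and 4570, and HFD + metformin mice 5294, 4314, 2894 and 4457. All groups overlapped, and each had a mouse well below its other 3.

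The group means were 4720 ± 803 CPM in control, 4362 ± 893 in HFD, 4571 ± 967 in HFD + RSV and 4240 ± 996 in HFD + metformin (SD, n = 4 each). The log2 fold change was -0.11 (SE 0.21, 95% interval -0.57 to 0.34) for HFD against control, with an adjusted P of 0.8416 by edgeR's quasi-likelihood test and an exact two-sided permutation P of 0.486. It was 0.07 (-0.39 to 0.52) for HFD + RSV against HFD and -0.04 (-0.49 to 0.41) for HFD + metformin against HFD. The exact permutation test of 4 against 4 mice cannot give a P below 0.0286. The remaining 3 comparisons of groups gave -0.05, -0.15 and 0.11, all with intervals across 0.

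Neat1 differed far more between mice of a group than between groups. Its summed count was 68626, 7621, 79783 and 9613 in control mice 1 to 4 and 68554, 90863, 4283 and 4225 in HFD mice. It was 4488, 52897, 83420 and 37198 in HFD + RSV mice and 40399, 10329, 58101 and 5513 in HFD + metformin mice. Every group thus held mice near the bottom and mice near the top of the range, and all groups overlapped.

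In CPM the Neat1 means were 12412 ± 11734 in control, 12143 ± 12701 in HFD, 13015 ± 9614 in HFD + RSV and 8425 ± 7539 in HFD + metformin (SD, n = 4 each). The log2 fold change for HFD against control was -0.03 (SE 1.17), with an interval of -2.55 to 2.49, an adjusted P of 0.9961 by edgeR and an exact permutation P of 0.657. For HFD + RSV against HFD it was 0.10 (-2.42 to 2.62), and for HFD + metformin against HFD -0.53 (-3.06 to 2.00). The other comparisons gave 0.07 for HFD + RSV against control, -0.56 for HFD + metformin against control and 0.63 for HFD + RSV against HFD + metformin. These intervals are wide, and changes of several-fold in either direction could not be detected for Neat1 with 4 mice a group.

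**Figure D2:**
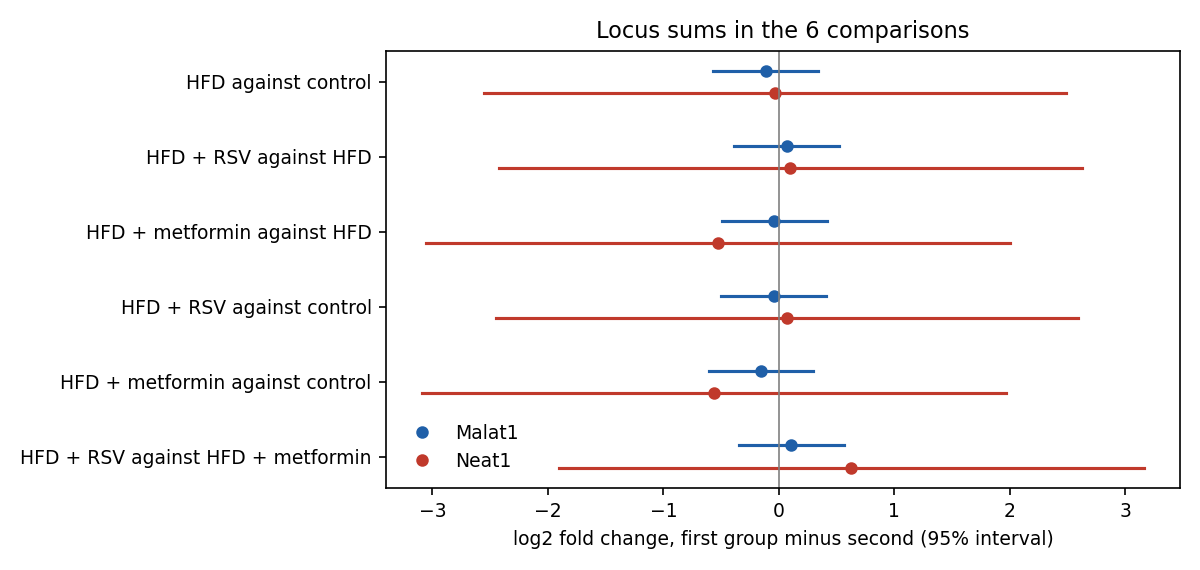
Log2 fold change (point) and 95% interval (line) of the summed counts of Malat1 and Neat1 in the 6 comparisons, as the first group minus the second. Every interval crosses 0, and those of Neat1, such as -2.55 to 2.49 for HFD against control, are several times as wide as those of Malat1.

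The spread of Neat1 lay in its full-length row. ENSMUST00000173672 (Neat1-201, chr19:5824708-5845478, a single exon of 20771 bases) held 83.1% to 99.4% of the Neat1 count, and its median of 38411 counts ranked 6 among all lncRNA rows. Its FPKM was 151, 9.53, 148 and 20.8 in control mice 1 to 4 and 114, 142, 6.26 and 6.90 in HFD mice. It was 7.46, 96.3, 152 and 64.4 in HFD + RSV mice and 95.2, 14.6, 119 and 6.93 in HFD + metformin mice. In order, 7 mice lay at 20.8 or below and 9 at 64.4 or above, with no mouse in the 3.09-fold gap between. Both sides were represented in every group, by 2 and 2 mice in control, HFD and HFD + metformin and by 1 below and 3 above in HFD + RSV.

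A range this wide was uncommon among abundant lncRNA rows but not particular to Neat1. Of 177 rows with a median of at least 1000 counts, 19 (10.7%) had a highest count over 10 times the lowest, 12 of them exceeded the 25.7-fold range of the full-length Neat1 row, and the median range was 2.42-fold.

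Other rows inside Neat1 did not follow the full-length row. NONMMUT033638.2 (chr19:5843983-5845008) lies wholly inside its 5′ part, and its FPKM was 7.16 to 14.6 over the 16 mice, a 2.04-fold range. The full-length row was at 6.26 to 20.8 FPKM in 7 mice and at 64.4 or above in the others. These 7 were control mice 2 and 4, HFD mice 3 and 4, HFD + RSV mouse 1 and HFD + metformin mice 2 and 4. Among them the full-length row ranged from below this internal row (6.90 against 14.6 in HFD mouse 4) to above it (20.8 against 9.30 in control mouse 4). ENSMUST00000174287 (Neat1-202, the short isoform that ends at the AATAAA shown above) moved the opposite way: the 7 mice below the gap had 29 to 154 counts of it and the 9 mice above had 13 to 17. The Pearson r of the log2 CPM of these isoform rows was -0.95 over the 16 mice with group means subtracted. The rows overlap along the whole short isoform, and the authors' counting tool divided fragments between them. A gain of the short row can thus come from reads of the full-length row. The short row held at most 154 counts in a mouse, beside 3509 to 90339 in the full-length row. How the reads were divided was not tested. Without the full-length row, the Neat1 count was 277 to 884, a 3.19-fold range, and its log2 fold change was 0.18 for HFD against control, -0.36 for HFD + RSV against HFD and -0.45 for HFD + metformin against HFD, with no call in any of the 6 comparisons.

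**Figure D3:**
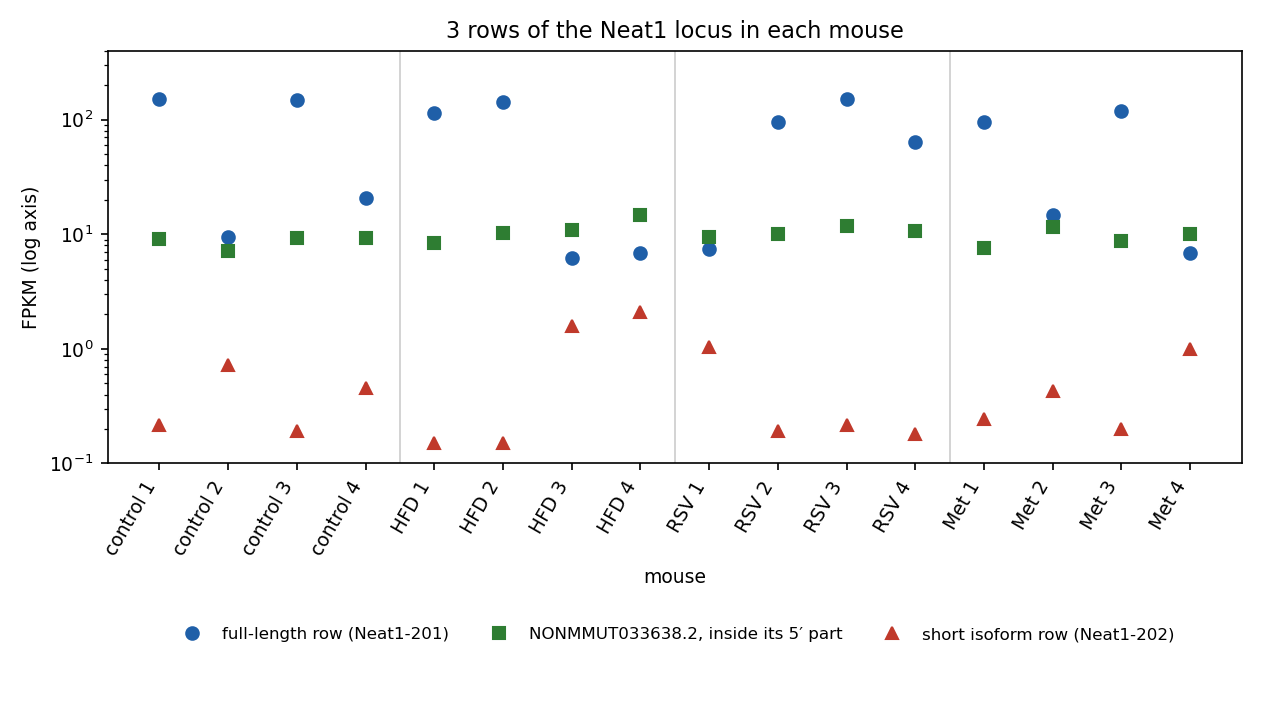
FPKM (log axis) of 3 Neat1 rows in each of the 16 mice, with mice of a group side by side and grey lines between groups. The full-length row spans 6.26 to 152 FPKM, NONMMUT033638.2 stays between 7.16 and 14.6, and the short isoform row is higher in each of the 7 mice below the gap of the full-length row than in any of the 9 above it.

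Rows that lay wholly in the body of Neat1, past the end of the short isoform, had few counts. Their share of the Neat1 count was 0.632% ± 0.809 in control, 0.512% ± 0.522 in HFD, 0.361% ± 0.468 in HFD + RSV and 0.513% ± 0.586 in HFD + metformin (SD, n = 4 each), with exact permutation P values of 0.8 for HFD against control, 0.943 for HFD + RSV against HFD and 1 for HFD + metformin against HFD. The leading row of the body, NONMMUT033626.2 (chr19:5829739-5830930), had 22 to 57 counts, and NONMMUT033637.2, a short row of the 5′ part, 12 to 42. The body share can move through the full-length row in its denominator.

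Within Malat1, the total had a 1.87-fold range, and its division among rows changed between mice. NONMMUT033609.2 (chr19:5796056-5802661), NONMMUT033610.2 (chr19:5796074-5802672) and NONMMUT033603.2 (chr19:5795729-5802679) together held 74.8% to 98.5% of the count, with a median of 97.4%. NONMMUT033603.2 was the steadiest, at 763 to 1440 counts (1.89-fold), and NONMMUT033610.2 the least steady of the 3, at 864 to 12480 (14.4-fold). The annotated full transcript, ENSMUST00000172812 (Malat1-201), took only 29 to 35 counts in a mouse. NONMMUT033608.2 had 47 to 81 counts, and NONMMUT033605.2 varied from 0 to 539. Of the 25 rows, 17 ran past the A-rich stretch shown above into the part that RNase P removes, and the 8 that ended before it held 70.7% to 93.7% of the Malat1 count.

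The same mouse of each group stood apart for several rows. NONMMUT033604.2 (chr19:5795745-5802674) had 1538 counts in control mouse 2, 655 in HFD mouse 1, 1382 in HFD + RSV mouse 2 and 2038 in HFD + metformin mouse 3, against 15 to 21 in the other 12 mice. NONMMUT033611.2 (chr19:5796076-5802772) had 482 to 684 counts in these 4 mice and 21 to 57 in the others. NONMMUT033610.2 went the other way, with 864 to 1613 counts in the 4 mice and 4191 to 12480 in the others. In all 4 groups this mouse also had the lowest summed Malat1 level of its group, by CPM and by FPKM. Over the 16 mice, with group means subtracted, log2 CPM of NONMMUT033610.2 had a Pearson r of -0.93 with NONMMUT033604.2, and of 0.95 with the Malat1 sum that contains it. These rows overlap almost wholly and share reads. The 4 mice are 1 of each group.

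**Figure D4:**
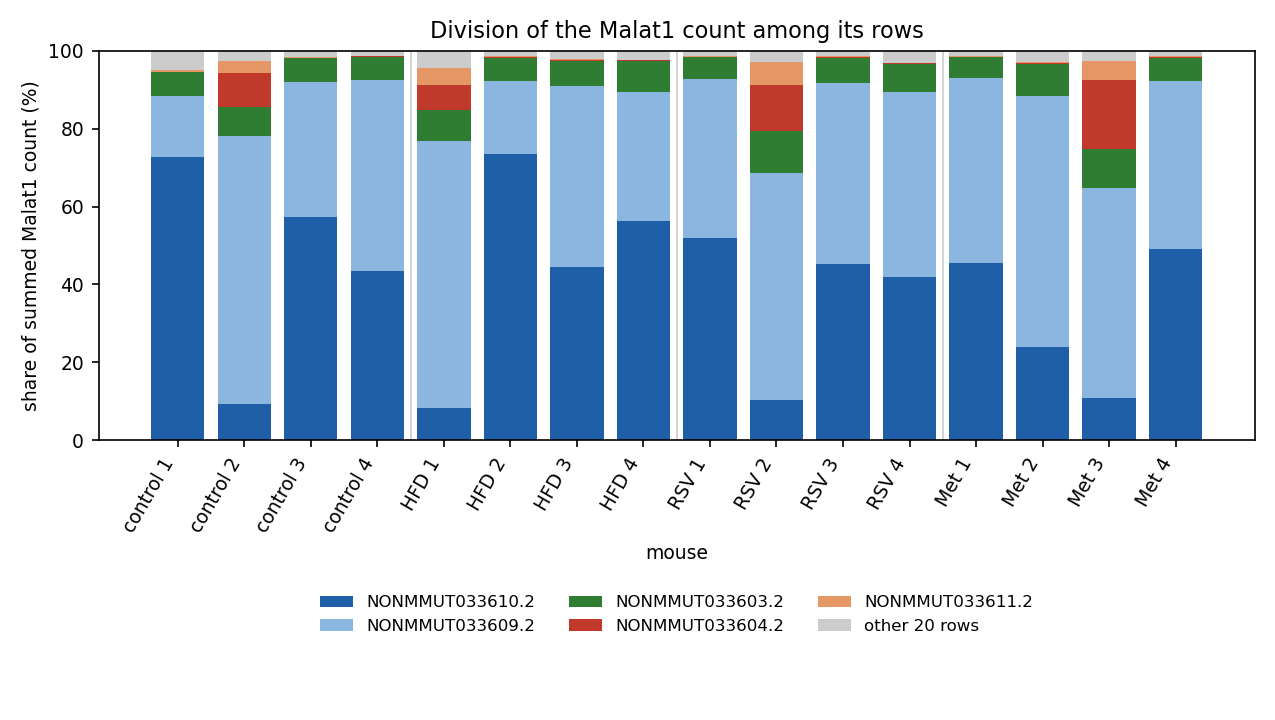
Share of the summed Malat1 count (%) held by 5 rows and by the other 20 rows together in each of the 16 mice, as stacked bars that start at 0. Control mouse 2, HFD mouse 1, HFD + RSV mouse 2 and HFD + metformin mouse 3 have more NONMMUT033604.2 and less NONMMUT033610.2 than the other 12 mice.

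Row by row, no transcript of the locus passed the test in any comparison. Of the 44 rows, 25 passed the filter on low counts (14 of Malat1, 10 of Neat1 and 1 between), and 8 of the rows left out never exceeded 3 counts in a mouse. At an adjusted P below 0.05 by edgeR, 0 of the 25 were called in HFD against control, where 1.62% of all lncRNA rows were, and 0 in HFD + RSV against HFD (0.0114% of all) and HFD + metformin against HFD (0% of all). The counts were also 0 for HFD + RSV against control (0.0114%), HFD + metformin against control (0%) and HFD + RSV against HFD + metformin (0.00568%). Single mice weighed on the background: of all lncRNA rows, 285 were called in HFD against control, 4 without control mouse 2, 25 without control mouse 3 and 554 without HFD + metformin mouse 3, and 0 members were called in each of these fits. At an unadjusted P below 0.05, 2 rows passed in HFD against control, both higher in HFD, beside 17.6% of all rows in either direction. With RSV against HFD 2 rows passed, both lower, beside 6.31% of all, and with metformin against HFD 2 rows, both lower, beside 6.95%. The same threshold gave 1 row in HFD + RSV against control (10.9% of all rows), 1 in HFD + metformin against control (9.99%) and 0 in HFD + RSV against HFD + metformin (5.36%). The members' shares were thus below that of the whole table in the comparisons with control and near or below it in the others. By the criteria of the study, read here as an unadjusted P below 0.05 with a log2 fold change beyond 1 in size, 1 row passed in HFD against control (5.93% of all rows), in HFD + RSV against HFD (1.91%), in HFD + RSV against control (3.36%) and in HFD + metformin against control (2.86%). The median log2 fold change of the 25 was 0.07 in HFD against control (-0.00345 over all rows), -0.11 with RSV against HFD (0 over all) and -0.26 with metformin against HFD (0.02 over all).

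The row closest to a call was NONMMUT033632.2 (chr19:5842304-5845704), which extends beyond the annotated Neat1 start and stops close to the end of the short isoform. It is described, like the other rows of this paragraph, because of its values. It had 10, 7, 15 and 10 counts in control mice, 23, 20, 21 and 21 in HFD, 14, 17, 16 and 9 in HFD + RSV and 6, 15, 15 and 14 in HFD + metformin. In CPM the HFD mice (5.71 to 7.13) did not overlap with control (1.41 to 3.79), HFD + RSV (2.70 to 4.82) or HFD + metformin (2.29 to 3.74). Its log2 fold change was 1.09 (SE 0.29) in HFD against control, with an adjusted P of 0.06661 by edgeR and 0.04632 by DESeq2, by which 1.23% of all lncRNA rows with a P value were called. It was -0.64 for HFD + RSV against HFD (adjusted P 0.7555 by edgeR) and -0.96 for HFD + metformin against HFD (adjusted P 0.5847). Both of these comparisons share the HFD mice with the first, and the row rests on at most 23 counts in a mouse. Over the other settings tried, its adjusted P by edgeR or DESeq2 in HFD against control was 0.04632 to 0.1611, and with each mouse left out 0.05933 to 0.1537.

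NONMMUT033638.2, the steady internal row of Neat1, had 50.5 to 73.0 CPM in control, 72.5 to 125 in HFD, 74.7 to 93.6 in HFD + RSV and 52.0 to 94.5 in HFD + metformin. Its log2 fold change in HFD against control was 0.59 (SE 0.20), with an adjusted P of 0.1419 by edgeR, and the ranges of those groups overlapped slightly. Frmd8os-202, the antisense transcript that starts beside the Neat1 start, had 37, 24, 45 and 38 counts in HFD mice and 22, 21, 0 and 0 in HFD + RSV mice, a log2 fold change of -1.79 with an adjusted P of 0.7413 by edgeR. It overlaps NONMMUT033632.2 but not Neat1-201, and as no strand is stated for the counting, reads of the overlap cannot be told apart. NONMMUT146023.1, which covers the body of Neat1 and runs past its end, had 177 counts in control mouse 4 and 0 to 16 in each other mouse. Of the 3 rows between the loci, only NONMMUT146022.1 (chr19:5817215-5819124) had enough counts to be tested. It had 11.1 to 28.2 CPM in HFD and 7.72 to 9.91 in HFD + metformin, a log2 fold change with a 95% interval of -1.94 to -0.06 and an adjusted P of 0.698 by edgeR.

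Few genes for proteins that work with these RNAs passed the test, and those that did were lower in HFD than in control. Of 25 paraspeckle protein genes, all tested, 1 fell in HFD against control, where 2.43% of all genes were called (374 genes, but 16 without control mouse 2 and 1588 without HFD + metformin mouse 3). This was Rbm3, a cold-induced RNA-binding protein, at 14.4 to 16.9 CPM in HFD and 22.0 to 27.5 in control, a log2 fold change of -0.63 (SE 0.10, adjusted P 0.01378 by edgeR). Of 24 genes for nuclear speckle and splicing proteins, all tested, 2 fell. Clk1, a kinase that phosphorylates SR splicing factors, was at 39.0 to 47.5 CPM in HFD and 56.1 to 64.1 in control (log2 fold change -0.51, SE 0.10, adjusted P 0.02367 by edgeR). Srsf5, an SR splicing factor, was at 68.5 to 72.9 CPM in HFD and 92.7 to 98.9 in control (log2 fold change -0.44, SE 0.11, adjusted P 0.04784 by edgeR). The groups did not overlap for these 3 genes. With each of the 16 mice left out in turn, Rbm3 was called in 16 fits, Clk1 in 11 and Srsf5 in 3.

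At an unadjusted P below 0.05 by edgeR, 7 of the 25 paraspeckle genes passed in HFD against control, 6 lower and 1 higher. Of the 24 speckle genes 8 passed, 7 lower and 1 higher, beside 24.2% of all genes in either direction. The median log2 fold change in HFD against control was -0.17 over the paraspeckle list and -0.12 over the speckle list, beside -0.02 over all genes. Against HFD, none of these genes was called with RSV (0% of all genes) or with metformin (0.0130% of all genes). The core paraspeckle genes Sfpq, Nono and Pspc1 gave values of -0.17, -0.13 and -0.22 in HFD against control and were not called. Summed adipocyte markers (6 of 6 in the table) were at 1075 to 5428 CPM in control and 183 to 1046 in HFD, and Schwann cell markers (5 of 5) at 57.3 to 221 and 40.1 to 57.2. Among the adipocyte markers Lep went the other way, with 93, 90, 272 and 508 counts in control and 408, 104, 1326 and 822 in HFD. Median log2 fold changes of other marker lists were -0.61 (erythroid), -0.39 (endothelial), -0.27 (macrophage), -0.08 (fibroblast), 0.19 (satellite cell) and 0.37 (skeletal muscle). No marker of these lists was at 0 in every mouse, and their part in the difference of these 3 genes was not tested.

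Of 12 genes for RNase P subunits and other factors of 3′ end processing or stability, 11 were tested and 0 were called in HFD against control, with 3 at an unadjusted P below 0.05 by edgeR (24.2% of all genes). Those with the smallest P were Mettl16, an RNA methyltransferase that binds the Malat1 triple helix (log2 fold change 0.23), and the RNase P subunit genes Rpp14 (0.21) and Rpp40 (0.31). Of 13 protein-coding genes that flank the locus, 12 were tested and 0 were called. At an unadjusted P below 0.05 by edgeR 4 passed, 3 higher and 1 lower in HFD. The median log2 fold change of the 12 was -0.11. Among those with the smallest P in that list were Ehbp1l1 and Sipa1, with log2 fold changes of 0.44 and 0.22. In both lists 0 genes were called with RSV or with metformin against HFD. DESeq2, by which 6.69% of all genes were called in HFD against control, called 1 flanking gene there, Ehbp1l1.

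**Figure D5:**
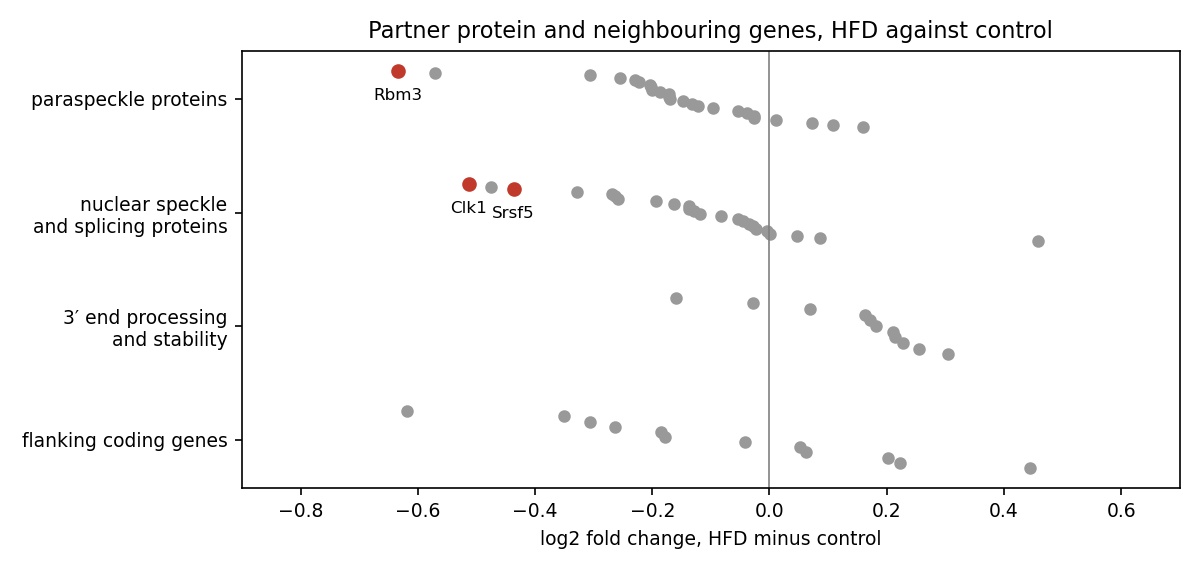
Log2 fold change in HFD minus control (x axis) for each tested gene of 4 lists, with a point for each gene and genes called at an adjusted P below 0.05 in red and named. The called genes Rbm3, Clk1 and Srsf5 lie between -0.63 and -0.44, and no gene of the lower 2 lists is called.

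The genes whose levels varied most like each locus over the 16 mice, with group means subtracted, were found by Pearson r of log2 CPM. For Malat1 these were Gatc (0.82), Eif3d (0.81) and Snx8 (0.79) among 10010 mRNA genes, and NONMMUT139265.1 (0.88), NONMMUT152432.1 (0.85) and ENSMUST00000204020 (0.84) among 10886 lncRNA rows outside the locus. For Neat1 they were G3bp2 (0.84), Zcchc2 (0.82) and Fam45a (0.80), and NONMMUT147345.1 (0.82), NONMMUT063640.2 (0.80) and NONMMUT067306.2 (0.79). Values as far below 0 also occurred among so many features, down to -0.87 for Malat1 and -0.85 for Neat1 among the mRNA genes. The mice share their libraries and depth between the 2 tables.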

How the data were processed

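Total RNA of 16 muscles was made into Illumina TruSeq libraries and sequenced by the authors, who per the labels and the study's methods trimmed reads with fastp, aligned them to GRCm38 with HISAT2 and assigned fragments to transcripts with StringTie, which divides a fragment among overlapping transcripts. The deposited lncRNA and mRNA tables hold expected counts per transcript and FPKM, which the authors computed per row from count, length and the total of both tables (the deposited FPKM of the members matched this within 0.0246%). Deposited transcript lengths were used to check that relation. Strand is not stated. Columns with fold changes and P values of the authors' own comparisons were not used.

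The lncRNA table has 58245 rows. The mRNA table has 82388 rows, 4 of them joined from lines that were broken in the file, and these were summed into 23235 gene names. The deposited expected counts were whole numbers and were used as they stand. edgeR 4.0.16 (R 4.3.3) was used with TMM factors within each table, filterByExpr (minimum count 10, minimum total 15) and a robust quasi-likelihood fit of all 16 mice in 4 groups. A call is an adjusted P (Benjamini-Hochberg, over 17599 lncRNA rows or 15364 genes) below 0.05. For the locus sums, member rows were replaced by their sum. CPM used the TMM factors, log2 CPM a prior count of 2. Two-sided exact permutation tests used log2 CPM, or the share in percent for the Neat1 body share. Correlations used log2 CPM with group means subtracted. Members, gene lists and markers were chosen with earlier results of these data known.

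The 6 rows of each locus with the highest median count, the list genes called (or the 3 with the smallest P) and the 3 most alike features were named by rule, except for a gene that is not reported here. Alternatives were DESeq2 1.42.0, RLE factors, TMM over both tables, no filter, 12 mice, Ensembl rows only, the criteria of the study (read here as unadjusted P below 0.05 and absolute log2 fold change above 1) and leaving out each mouse. On simulated counts for HFD against control, with 200 rows changed by a log2 fold change of 2, 62% of changed lncRNA rows (17599 rows, 4 false calls) and 86% of changed genes (15364 genes, 5 false calls) were recovered. Separate mice were the replicates, and sequencing depth covers counting error only.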

Additional observations from a re-analysis of the deposited data

Results flagged for a closer look

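Within groups of 4 mice, 56 groups of values (locus sums and named rows, log2 CPM) were tested for a mouse apart from the other 3 by Dixon's criterion of 0.829, and 8 were apart, where chance gives about 1 in 20 for a single test. The 56 are not independent, as the rows overlap and the sums contain them. The summed Malat1 level was low in control mouse 2, at 3531 CPM, and in HFD mouse 1, at 3044 CPM. In HFD + RSV mouse 2, NONMMUT033610.2 was low at 342 CPM, and in HFD mouse 1, NONMMUT033611.2 was high at 140 CPM. These 3 mice are among the 4 in which counts of Malat1 were divided differently among its rows. Those 4 were described from the same rows and sum, so the flags are not separate evidence. NONMMUT033605.2, another Malat1 row, had 0 CPM in HFD mouse 2. In the Neat1 window, NONMMUT033637.2 was high in HFD mouse 4 at 14.3 CPM, Frmd8os-202 was low in HFD + metformin mouse 1 at 3.05 CPM, and the short isoform row ENSMUST00000174287 was high in HFD + RSV mouse 1 at 23.7 CPM, the mouse of its group with the least full-length Neat1. The full-length Neat1 row itself was not apart in any group of 4 by this criterion.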

How the results depend on the processing

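No alternative gave a call for the Malat1 or Neat1 sum in any of the 6 comparisons, but signs changed. For the Malat1 sum, Ensembl rows only gave 0.052 in HFD against control and 0.078 in HFD + RSV against control. These rows held only 105 to 166 of the 10459 to 19520 Malat1 counts in a mouse. TMM over both tables gave 0.0045 for the Malat1 sum in HFD + metformin against HFD. Leaving out each mouse, the Malat1 sum ranged from -0.23 to 0.028 for HFD against control, -0.073 to 0.19 for HFD + RSV against HFD, -0.18 to 0.11 for HFD + metformin against HFD, -0.17 to 0.081 for HFD + RSV against control and -0.040 to 0.24 for HFD + RSV against HFD + metformin. For Neat1 these ranges were -0.71 to 0.55, -0.41 to 0.78, -0.996 to 0.15, -0.44 to 0.64 and 0.12 to 1.09, and for HFD + metformin against control -1.02 to 0.016 (Malat1 -0.28 to -0.0085). Without the full-length row, an alternative chosen after seeing the data, Neat1 gave 0.18 for HFD against control, -0.36 for HFD + RSV against HFD and -0.18 for HFD + RSV against control.

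The Neat1 body share ranged over single mice left out from -0.31 to 0.28, -0.38 to 0.012 and -0.28 to 0.16 percentage points in HFD against control, RSV against HFD and metformin against HFD, and counting the rows over both parts with the body gave -4.97, 4.52 (a turned sign) and 3.26, in place of -0.12, -0.15 and 0.00061, with no exact permutation P below 0.286.

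By the criteria of the study, 1 member row passed in HFD against control (NONMMUT033632.2), 1 in HFD + RSV against HFD (Frmd8os-202), and 1 in HFD + RSV and in HFD + metformin against control (NONMMUT146023.1), a row that control mouse 4 dominates. DESeq2 called 1 member row in HFD against control. In HFD against control, the paraspeckle list gave 0 calls by the criteria of the study, 3 by DESeq2 (Hnrnpk, Rbm3 and Zc3h6), 4 with 12 mice (Ewsr1 besides; added after seeing the data) and 1 to 3 with a mouse left out. The speckle list gave 0 by the criteria of the study, 4 by DESeq2 (Clk1, Clk4 and Srsf5, which were lower in HFD, and Srsf7, which was higher), 4 with 12 mice (Clk1, Clk4, Srsf5 and Srsf11), 1 (Clk1) without the filter and 0 to 3 with a mouse left out. Rbm3 was called in all 16 fits that left out a mouse, Clk1 in 11 and Srsf5 in 3. Both speckle calls were lost without control mouse 2, control mouse 3 or HFD mouse 1, 2 or 4. The flanking list gave 1 call (Ehbp1l1) by DESeq2 and with 12 mice, and 0 to 2 with a mouse left out, the most without HFD + metformin mouse 3. The cause was not tested. DESeq2 called 6.69% of all genes in HFD against control, and calls over all genes also rose without HFD + metformin mouse 3, as given above. No share of all genes is given for the fit with 12 mice, so its list counts cannot be set beside all genes.

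No paired analysis was possible because numbers in the mice's titles name different animals in each group and tie none across groups. A sum over rows on the strand of the gene was not run, as the tables give no strand. The common biological coefficient of variation was 0.4125 over the tested lncRNA rows and 0.411 where sums replaced the member rows, and 19 of the 44 rows had too few counts to be tested.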
